A study of Homo sapiens with 16 samples.

Results

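AP-1 is the family of dimeric transcription factors built from FOS and JUN proteins, and it is read here through 9 genes: ATF3, FOS, FOSB, FOSL1, FOSL2, JUN, JUNB, JUND and EGR1. They were chosen by name, and all 9 are among the 28690 genes found in the count tables of both experiments. The libraries are poly-A RNA-seq of U2OS, a human osteosarcoma line. The cells were either wild type (WT) or edited with CRISPR/Cas9 to carry the W329G change in MDM2, the ubiquitin ligase that keeps p53 low. Cells of each genotype received 50 µM of 5-fluorouracil (5-FU), a pyrimidine analog used in chemotherapy, or its solvent DMSO as the control, for 24 h. The study's stated purpose was the effect of the MDM2 change on p53 regulation. There were 2 lines per genotype, and the design was run as 2 experiments, each read by its own sequencing vendor. The 16 libraries form 4 groups of 4: WT with DMSO, WT with 5-FU, W329G with DMSO and W329G with 5-FU. In every group, replicates 1 and 2 are lines 1 and 2 of experiment 1, and replicates 3 and 4 are lines 1 and 2 of experiment 2. The labels do not say whether a line is a clone, nor whether cultures were separate beyond the experiment, so the p-values measure only the spread between these libraries.

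Immediate early genes are transcribed within minutes of a growth factor or stress signal, without new protein synthesis, through MAP kinases acting on factors already bound at their promoters. FOS, FOSB, FOSL1 (FRA1) and FOSL2 (FRA2) encode proteins that must pair with a JUN protein to bind DNA, whereas JUN, JUNB and JUND can also pair among themselves. ATF3 is a stress-induced relative that pairs with JUN proteins and is also a known p53 target gene, and EGR1 is a zinc finger factor induced by the same signals. FOSL1 and JUND differ from the others in their known time course: FOSL1 is a delayed gene that AP-1 itself helps to switch on, and JUND is expressed more or less steadily.

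Promoters of 4 members are shown because genes of this family are known for a few short elements that recur close to the start. The sequences are RefSeq's (GRCh38.p14), cut to the bases before the start that lie in no exon of the gene, and written 5′ to 3′ on the gene's strand. Capitals mark every match to a motif searched on both strands: the AP-1 site TGANTCA, the cyclic AMP response element TGACGTCA and its core TGACG, the TGACATCA variant known from the JUN promoter, the CArG box of serum response factor, the EGR site GCGNGGGCG, the p53 half-site and TATAAA. The core is contained in the full element, so the 2 matches overlap there.
ATF3, chr1:212565157-212565333, plus strand: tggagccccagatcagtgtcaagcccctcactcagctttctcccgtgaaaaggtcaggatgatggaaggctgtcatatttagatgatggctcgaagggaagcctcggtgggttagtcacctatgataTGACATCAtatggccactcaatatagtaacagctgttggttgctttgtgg
FOS, chr14:75278578-75278773, plus strand: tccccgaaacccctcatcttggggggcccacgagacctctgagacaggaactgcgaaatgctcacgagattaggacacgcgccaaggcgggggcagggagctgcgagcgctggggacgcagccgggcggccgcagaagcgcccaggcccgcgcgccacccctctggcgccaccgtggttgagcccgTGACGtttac
EGR1, chr5:138465229-138465478, plus strand: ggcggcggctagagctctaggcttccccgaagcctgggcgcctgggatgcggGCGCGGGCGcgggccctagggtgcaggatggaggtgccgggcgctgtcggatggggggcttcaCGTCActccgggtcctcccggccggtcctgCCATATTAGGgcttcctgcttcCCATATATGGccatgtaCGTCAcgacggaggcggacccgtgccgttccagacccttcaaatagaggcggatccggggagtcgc
JUND, chr19:18281623-18281872, minus strand: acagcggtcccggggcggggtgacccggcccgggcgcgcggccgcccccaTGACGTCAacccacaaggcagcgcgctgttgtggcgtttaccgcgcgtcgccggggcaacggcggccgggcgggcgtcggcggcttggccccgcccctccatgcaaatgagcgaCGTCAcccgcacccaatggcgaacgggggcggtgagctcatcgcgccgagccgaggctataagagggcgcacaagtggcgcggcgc

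Each window searched began 250 bases before a RefSeq start and ended shortly after it. Elements further upstream were not searched, so a motif not found is absent only from the window. Of the 9 members, 8 had a promoter window in the RefSeq table, and 7 of these 8 held the TGACG core on either strand. Of all 35116 windows of that length, 24.6% held it. The full TGACGTCA element was found in 1 member, JUND, and in 1.85% of all windows. ATF3 and JUN held TGACATCA (2.61% of all windows), at 123 and 67 bases before the start. Within these windows EGR1 was the only member with a CArG box (1.29% of all windows): it held 2, at 105 and 83 bases before the start, and also the EGR site (9.43% of all windows). TGANTCA was found in FOSL2 only, inside an exon (7.71% of all windows), TATAAA in 4 members (11.5%), and the p53 half-site in 0 of 8 (6.63%). ATF3 had 2 windows, of which window 1 is printed above. Its TGACATCA lay in window 1 and its TATAAA in window 2, so the counts pool both for this gene. These are matches of letters, and binding was not measured.

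Total counts ran from 24715999 to 56877328 per library, and the 9 members together took between 0.0434% and 0.0913% of the joined counts. Mitochondrially encoded genes took between 7.14% (W329G with DMSO, replicate 1) and 31.84% (WT with 5-FU, replicate 1). MDM2 itself, the edited gene, was at 60.7 ± 18.8 and 231 ± 47.6 CPM (SD, n = 4) in WT cells with DMSO and 5-FU, and at 72.6 ± 31.1 and 75.5 ± 19.9 CPM in W329G cells, though its level cannot check a change of a base. As a check on the p53 axis, CDKN1A (p21) was at 117 ± 37.8 CPM (counts scaled to library size with TMM factors, SD, n = 4) in WT cells with DMSO and 677 ± 325 CPM with 5-FU, against 93.8 ± 33.9 and 155 ± 67.1 CPM in W329G cells. The osteosarcoma and mesenchymal marker list summed to between 5510 and 13900 CPM, with COL1A1 at 4770 CPM on average and TWIST1 near 0 (0.0724 CPM). Blood markers summed to between 0.909 and 128 CPM, with CD3E and HBB near 0. LYZ was at 0 in at least 1 library of every group and reached 127 CPM in others. Epithelial markers summed to between 139 and 728 CPM, mostly KRT8 and KRT18, and neural markers to between 9.24 and 43.7 CPM. Across genes, line 2 minus line 1 in experiment 1 ran against the same difference in experiment 2 (r = -0.331 in WT and -0.618 in W329G). The comparisons between genotypes, which sum a line's libraries over the experiments, rest on those line numbers. Whether a number named the same line in both experiments was not tested. If it did not, each sum mixed lines, and the p-values from these sums do not measure the spread between lines.

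The members differed widely in level. Compared per kilobase of exon in the 8 libraries of experiment 1, whose tables give gene lengths, JUN (chr1:58780788-58784327, minus strand, 3540 exon bases) was highest at 46.4 ± 8.1 CPM per kb (SD, n = 8). EGR1 followed at 42.9 ± 11.7, FOSL2 at 35 ± 6.93 and JUNB at 29.1 ± 8.43 CPM per kb. Neighbours among these 4 did not differ beyond their spread, and their order changed between libraries. JUND stood at 19.5 ± 2.72 and FOSL1 at 15.3 ± 5.18 CPM per kb. The lowest 3, FOS at 5.37 ± 1.31, ATF3 at 3.68 ± 1.65 and FOSB at 1.73 ± 0.46 CPM per kb, kept this order in all 8 libraries. FOS itself thus made up 9.35% of the summed level per kb of the FOS family, against 61.3% for FOSL2, 26.3% for FOSL1 and 3.01% for FOSB. In the JUN family JUN made up 48.8%, JUNB 30.2% and JUND 21.0%.

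**Figure D1:**
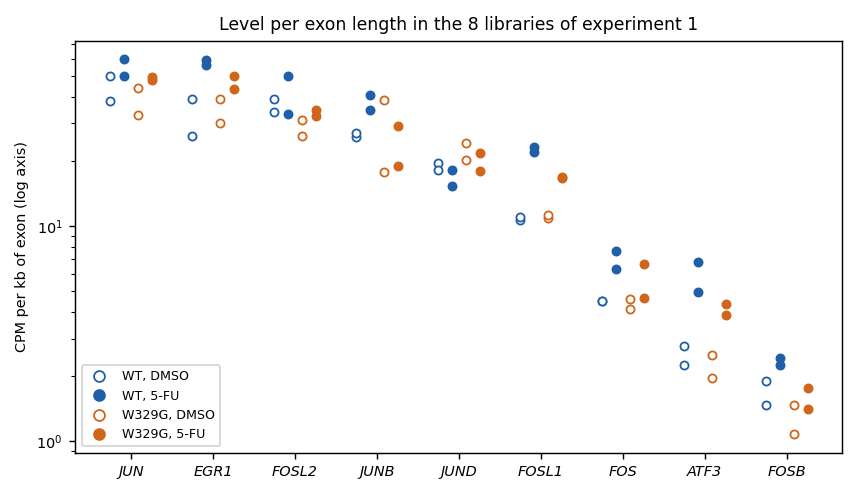
Level of each gene in CPM per kilobase of exon (log axis) in the 8 libraries of experiment 1, ordered by mean, with open points for DMSO and filled points for 5-FU. JUN, EGR1, FOSL2 and JUNB overlap at the top, and FOS, ATF3 and FOSB lie below the other 6 genes in every library.

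Levels also differed between the experiments. FOSB was lower in experiment 2 by a log2 difference of -3.40 ± 0.16 (SE, averaged over the 4 groups, edgeR adjusted p = 7.09e-09) and FOS by -1.92 ± 0.16 (adjusted p = 8.49e-07). JUNB (-1.36), EGR1 (-0.97), JUN (-0.72) and ATF3 (-0.65) were also lower and JUND (0.66) higher, and for these 7 except ATF3 the size of the difference exceeded that of either 5-FU log2 fold change. This makes 7 of 9 members called where 56.7% of the 16433 genes tested were. FOSL1 (0.29) and FOSL2 (-0.08) did not pass. The genes counted also differed, with 57500 Ensembl genes in experiment 1 and 28890 symbols in experiment 2. Vendor, culture, handling time and counting cannot be told apart in these differences of level. The 5-FU responses below therefore have a term for experiment. The genotype comparisons sum each line over both experiments without such a term, so libraries with more counts weigh more. A summed value can then lie outside those of the experiments. FOS under DMSO had a log2 difference between genotypes of 0.10 summed, and of -0.04 and -0.14 in experiments 1 and 2 alone. Values within each experiment stand beside the summed ones for FOSB and FOSL1 under DMSO, and for ATF3, FOSB and JUN with 5-FU.

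**Figure D2:**
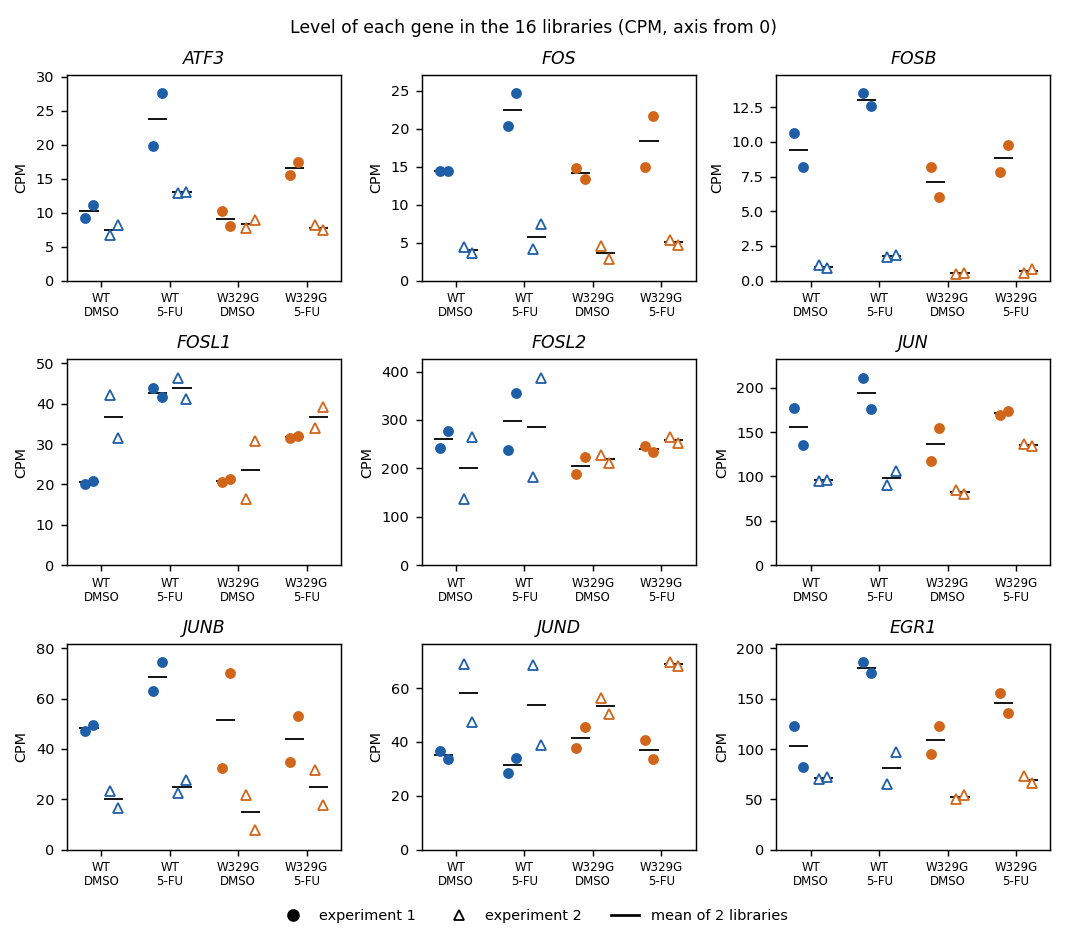
CPM of each gene in all 16 libraries (axis from 0), with filled circles for experiment 1, open triangles for experiment 2 and a bar at the mean of 2 libraries. In WT cells ATF3 is the only gene whose 4 libraries with 5-FU all lie above its 4 libraries with DMSO. In W329G cells FOSL1 and FOSL2 are the genes of that kind. FOS and FOSB show the gap between experiments.

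In WT cells ATF3 rose about 2-fold with 5-FU, and it was the only member called. ATF3 (ENSG00000162772, chr1:212565334-212620777, plus strand) measured 9.16, 11.2, 6.68 and 8.26 CPM in replicates 1 to 4 with DMSO, and 19.9, 27.6, 12.9 and 13.1 CPM with 5-FU. All 4 libraries with 5-FU lay above all 4 with DMSO, and the rise was larger in experiment 1 (log2 fold change 1.23) than in experiment 2 (0.77). The log2 fold change over both was 1.00 ± 0.20 (SE, adjusted p = 0.00487), and all 4 pairs of the same line and experiment rose. Without replicate 2 of both WT groups it was 0.88 with an adjusted p of 0.0512, and without mitochondrially encoded genes 1.02 with 0.00391. Thus 1 of 9 members (11.1%) was called, where 8.79% of the 16433 genes tested were called, 3.57% as higher and 5.22% as lower.

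The FOS family genes had positive values that did not pass the test. FOSL1 (FRA1, chr11:65892049-65900573, minus strand) measured 20.2, 20.8, 42.1 and 31.4 CPM with DMSO and 43.8, 41.7, 46.4 and 41.2 CPM with 5-FU. In experiment 1 the 5-FU libraries stood clearly above their controls, whereas in experiment 2 the controls were already high and 1 of them exceeded a treated library. The log2 fold change was 0.62 ± 0.19 (adjusted p = 0.0585), with 1.07 in experiment 1 and 0.22 in experiment 2. FOS (chr14:75278774-75282230, plus strand) measured 14.5, 14.5, 4.44 and 3.66 CPM with DMSO and 20.4, 24.7, 4.18 and 7.43 CPM with 5-FU, a log2 fold change of 0.57 ± 0.19 (adjusted p = 0.0834) with 3 of 4 pairs higher. FOSB (chr19:45467995-45475179, plus strand) measured 10.6, 8.17, 1.1 and 0.880 CPM with DMSO and 13.5, 12.6, 1.69 and 1.82 CPM with 5-FU. Within each experiment the FOSB groups of 2 libraries did not overlap, though the share of all genes with such groups is not given here. The log2 fold change of FOSB was 0.64 ± 0.21 (adjusted p = 0.0788). FOSL2 (chr2:28392448-28417312, plus strand), the most abundant of the 4 per kb, measured 242, 278, 136 and 264 CPM with DMSO and 238, 356, 183 and 387 CPM with 5-FU, a log2 fold change of 0.33 ± 0.23 (adjusted p = 0.446).

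EGR1 and the JUN family were not called either. EGR1 (chr5:138465490-138469315, plus strand) measured 123, 82.3, 70.5 and 71.8 CPM with DMSO and 186, 176, 65.4 and 97.3 CPM with 5-FU. Its treated libraries of experiment 1 stood above their controls and those of experiment 2 straddled them. The log2 fold change was 0.48 ± 0.17 (adjusted p = 0.0985). JUN measured 177, 135, 94.9 and 96.0 CPM with DMSO and 211, 176, 90.0 and 106 CPM with 5-FU, which overlapped in both experiments, a log2 fold change of 0.17 ± 0.15 (adjusted p = 0.568). JUNB (chr19:12791496-12793315, plus strand) gave 0.40 ± 0.31 (adjusted p = 0.505). JUND (chr19:18279760-18281622, minus strand), the steady member, was the only one with a negative value, -0.16 ± 0.17 (adjusted p = 0.663).

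Libraries of the same line and experiment varied together, and a fit with these pairs as a replicate block called more of the members. In WT cells 6 of 9 (66.7%) were then called, all as higher, where 24.8% of all genes were called and 11.6% as higher. The 6 were ATF3 (adjusted p = 0.00183), FOSL1 (0.00993), FOSB (0.0164), FOS (0.0311), FOSL2 (0.0312) and EGR1 (0.0335), with log2 fold changes from 0.32 for FOSL2 to 1.00 for ATF3. JUN (0.303), JUNB (0.135) and JUND (0.333) did not pass in this fit either. The number of members higher with 5-FU was 7, 9, 4 and 8 of 9 in WT pairs 1 to 4. The third pair, line 1 of experiment 2, thus stood apart, with a median log2 difference of -0.01 against 0.41, 0.63 and 0.55 in the others. Without it 4 members were called in the fit without pairs, namely ATF3, FOS, FOSL1 and EGR1. Leaving out replicate 1, 2 or 4 of both WT groups instead gave 1, 0 and 1 calls. The pair left out for the 4 calls had the lowest median, so a higher count without it follows partly from that choice.

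**Figure D3:**
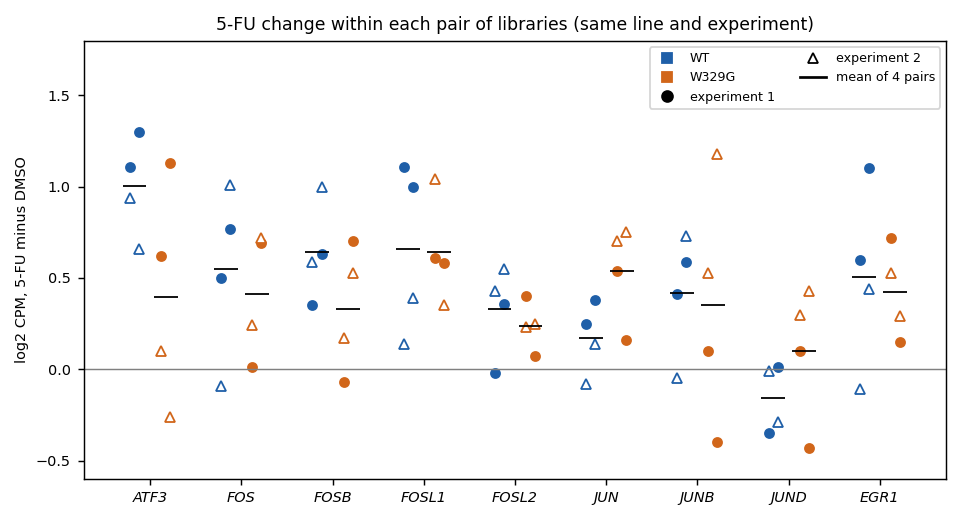
Difference in log2 CPM between 5-FU and DMSO within each pair of libraries of the same line and experiment, with a bar at the mean of the 4 pairs of a genotype. ATF3 in WT cells lies between 0.66 and 1.30, and in W329G cells its pairs run from -0.26 to 1.13, with the experiment 2 pairs lowest.

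In W329G cells no member was called, 0 of 9 where 0.785% of all genes were called (0.195% as higher and 0.59% as lower). All 9 log2 fold changes were positive, from 0.09 to 0.61, beside 53.3% positive among all genes, and FOSL1, JUN and EGR1 had an unadjusted p under 0.05. ATF3 measured 10.2, 7.98, 7.69 and 8.90 CPM with DMSO and 15.6, 17.5, 8.22 and 7.4 CPM with 5-FU. Both treated libraries of experiment 1 stood above all controls, whereas in experiment 2 1 treated library lay among the controls and 1, at 7.4 CPM, below all of them. The log2 fold change was 0.38 ± 0.20 (adjusted p = 0.441), from 0.87 in experiment 1 and -0.12 in experiment 2. That difference between the experiments had an unadjusted p of 0.00928 in edgeR and an adjusted p of 1, and 0 of 16433 genes passed that test.

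JUN and FOSL1 had the smallest p-values among the members in W329G cells. JUN, whose protein pairs with FOS and ATF proteins, measured 117, 155, 84.2 and 79.8 CPM with DMSO and 169, 174, 137 and 134 CPM with 5-FU. The groups of 2 libraries did not overlap within either experiment, though the share of all genes with such groups is not given here. The log2 fold change of JUN was 0.53 ± 0.15 (adjusted p = 0.112). FOSL1 measured 20.5, 21.3, 16.5 and 30.8 CPM with DMSO and 31.4, 32.0, 34.0 and 39.3 CPM with 5-FU, a log2 fold change of 0.61 ± 0.19 (adjusted p = 0.171). FOSL2 measured 188, 223, 227 and 211 CPM with DMSO and 247, 233, 265 and 252 CPM with 5-FU (log2 fold change 0.23 ± 0.23, adjusted p = 0.729). FOSL1 and FOSL2 were the members whose treated libraries all lay above all controls in this genotype, 2 of 9 where 4.04% of all genes had non-overlapping groups. In WT cells only ATF3 met that description, where 8.09% did.

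The other members gave EGR1 0.41 ± 0.17 (adjusted p = 0.306), FOS 0.41 ± 0.19 (0.384), FOSB 0.34 ± 0.22 (0.556), JUNB 0.25 ± 0.31 (0.797) and JUND 0.09 ± 0.17 (0.882). JUNB was the most uneven: 32.4, 70.2, 21.8 and 7.86 CPM with DMSO against 34.8, 53.2, 31.7 and 17.8 CPM with 5-FU. It was lower in the pair of line 2 in experiment 1 (-0.40 in log2 CPM) and higher in that of line 2 in experiment 2 (1.18). With the pairs as a replicate block JUN (adjusted p = 0.00873) and FOSL1 (0.0216) were called as higher, 2 of 9 (22.2%) where 10.9% of all genes were called and 5.14% as higher. DESeq2 called JUN alone.

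**Figure D4:**
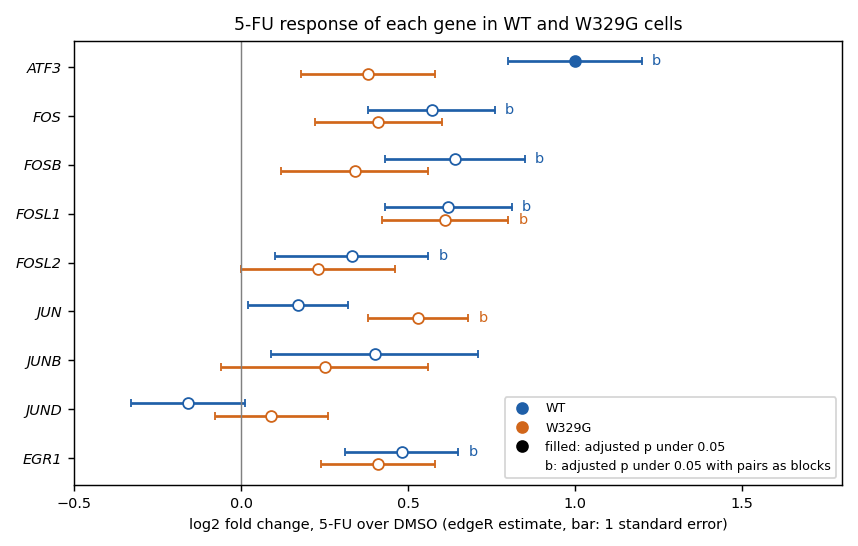
Log2 fold change of 5-FU over DMSO for each gene in WT and W329G cells (edgeR estimate, bars of 1 standard error), filled where the adjusted p was under 0.05 and marked b where it was so with pairs as blocks. ATF3 in WT cells is the filled point, at 1.00 ± 0.20, and 6 WT and 2 W329G values carry the mark.

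The 5-FU responses of the members did not pass a test of their difference between the genotypes. Of 9 members 0 were called, where 1.2% of all genes were, and with the replicate block 0 of 9 where 6.15% were. ATF3 had the largest difference, a response lower by -0.62 ± 0.28 in W329G cells (edgeR unadjusted p = 0.0424, adjusted p = 0.502), the only member under 0.05 before adjustment, and DESeq2 called 0. JUN differed the other way, by 0.37 ± 0.21 (adjusted p = 0.679). The remaining members lay between -0.31 ± 0.31 for FOSB and 0.25 ± 0.24 for JUND. For scale, the response of CDKN1A was lower by -1.73 ± 0.23 (adjusted p = 0.00174). On simulated counts with a dispersion of 0.03, this comparison recovered 63.5% of genes given a log2 change of 1 and 1.5% of those given 0.5, and the value of ATF3 lies between these sizes. The simulated counts had the same dispersion for every gene and no experiment, line or pair effect. These shares therefore do not give the recovery to be expected in the data.

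Between genotypes under DMSO the members did not differ detectably. On counts summed per line, 0 of 9 were called, where 1.42% of 17481 genes were, and the log2 differences of W329G against WT ran from -0.47 ± 0.19 for FOSL1 (adjusted p = 0.239) to 0.10 ± 0.19 for FOS (adjusted p = 0.816). ATF3 stood at 8.68 ± 1.11 CPM (SD, n = 4) in W329G and 8.82 ± 1.87 CPM in WT cells, a log2 difference of 0.02 ± 0.17. FOSL1 was the 1 member with an unadjusted p under 0.05, but its log2 difference was 0.03 in experiment 1 and -0.63 in experiment 2 alone. FOSB, at -0.18 ± 0.20 on summed counts, was at -0.40 and -0.90 in experiments 1 and 2 alone. DESeq2 called 0 members. In all 9 members the libraries of the genotypes overlapped, where 3.29% of all genes did not.

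With 5-FU, ATF3 and FOSB had the lowest p-values between genotypes, both lower in W329G cells, and neither passed. Of 9 members 0 were called, where 14.4% of all genes were (7.27% as higher and 7.11% as lower), 2 had an unadjusted p under 0.05, and DESeq2 called ATF3. ATF3, with 15.6, 17.5, 8.22 and 7.4 CPM in W329G and 19.9, 27.6, 12.9 and 13.1 CPM in WT cells, lay lower in W329G cells within each experiment. Its log2 difference was -0.55 ± 0.16 (adjusted p = 0.0576). It was called under 4 of 13 alternatives for this comparison, with adjusted p-values from 0.0219 to 0.362 over all of them. FOSB also lay lower within each experiment, at 7.81, 9.80, 0.575 and 0.820 CPM against 13.5, 12.6, 1.69 and 1.82 CPM. The summed counts gave it -0.49 ± 0.19 (adjusted p = 0.131), and single libraries with a term for experiment gave -0.92 (adjusted p = 0.0106). Most of the summed FOSB counts came from experiment 1, with 171 to 328 counts per library against 17 to 74 in experiment 2. Within an experiment each group held 2 libraries, and the share of all genes lying apart there is not given.

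FOSL1 was the only member whose W329G and WT libraries did not overlap with 5-FU, where 11.4% of all genes did not: 31.4 to 39.3 CPM against 41.2 to 46.4 CPM. Its log2 difference was -0.32 ± 0.19 (adjusted p = 0.318). JUN lay lower in W329G cells in experiment 1 and higher in experiment 2 (log2 differences -0.18 and 0.47), and over both its difference was 0.20 ± 0.11 (adjusted p = 0.261). JUNB gave -0.34 ± 0.17 (adjusted p = 0.211) and JUND 0.29 ± 0.21 (adjusted p = 0.397). EGR1, FOS and FOSL2 lay between -0.20 and -0.16, each within about 1 standard error of 0 or slightly beyond it. Leaving out WT line 1 gave 3 calls, ATF3 (-0.67), FOSL2 (-0.57) and JUND (0.59), and leaving out any other line gave 0.

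Other genes of the same signalling were read from gene lists. As the background for these lists, 3.57% of all genes were called as higher in WT cells and 0.195% in W329G cells. With the replicate block the shares were 11.6% and 5.14%. Among 31 further immediate early genes tested, 4 rose in WT cells and 0 fell, with a median log2 fold change of 0.33 beside 0.01 for all genes. They were ARC, an early gene known from neurons (1.29 ± 0.23, adjusted p = 0.00223), NFKBIZ, an inflammatory co-regulator (1.21 ± 0.31, adjusted p = 0.0222), CCN1, a matrix signalling protein (0.93 ± 0.16, adjusted p = 0.00197), and IER5 (0.69 ± 0.13, adjusted p = 0.00297). In W329G cells 1 of 31 rose and 0 fell, with a median of 0.29. With the replicate block 12 rose and 1 fell in WT cells, and 10 rose and 0 fell in W329G cells. The median of the 9 members was 0.48 in WT and 0.38 in W329G cells.

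The early gene that rose in W329G cells was KLF2, a zinc finger factor of endothelial quiescence, at 1.01 ± 0.22 (adjusted p = 0.0462). Its value in WT cells was -0.70 (adjusted p = 0.0693), which was called with the replicate block (-0.69, adjusted p = 0.0183). The difference of these responses, 1.70 ± 0.32, passed the test (adjusted p = 0.0121), as it did for no other gene on the lists of early, leucine zipper, AP-1, EGR1, ATF4 and MAP kinase genes. With the replicate block the difference was called lower in W329G cells for 4 AP-1 target, 2 EGR1, 2 stress, 1 early, 1 leucine zipper, 1 feedback and 1 kinase gene, and higher for KLF2 and 1 leucine zipper gene. The share over all genes, in either direction, was 6.15% with the block.

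Genes known to carry AP-1 sites, mostly of matrix remodelling, adhesion and secretion, rose in WT cells in 7 of 28 cases and fell in 0, with a median of 0.38. Among all genes 3.57% rose in WT cells, and with the replicate block 5.14% rose in W329G cells. ITGA2, a collagen receptor subunit, rose by 1.60 ± 0.31 (adjusted p = 0.00401), the cytokine IL11 by 0.98 ± 0.21 (adjusted p = 0.00734), the urokinase gene PLAU by 0.95 ± 0.17 (adjusted p = 0.00214) and cyclin D1 (CCND1) by 0.77 ± 0.17 (adjusted p = 0.0100). In W329G cells 0 of 28 were called, though 26 had positive values with a median of 0.36, and with the replicate block 8 rose and 0 fell. The difference of the responses was called for 0 of 28, and with the replicate block for 4, all lower in W329G cells, among them ITGA2 (-1.40, adjusted p = 0.0339). ITGA2 is 1 gene well above the list's median in WT cells, and the medians were similar in both genotypes. By library it was at 48.8, 36.3, 35.7 and 27.5 CPM in WT cells with DMSO, and 271, 147, 65.1 and 50.9 CPM with 5-FU. In W329G cells it was at 50.8, 42.8, 24.8 and 40.2 CPM with DMSO and 78.8, 62.4, 22.9 and 29 CPM with 5-FU, so its experiment 2 libraries lay lower with the drug.

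MAP kinase feedback genes, which encode phosphatases and inhibitors of the pathway that drives immediate early genes, gave 1 rise among 19 in WT cells, DUSP5 (0.69 ± 0.18, adjusted p = 0.0251), a phosphatase of ERK. The list's median was 0.34, and with the replicate block 8 rose and 0 fell. In W329G cells 0 of 19 were called and the median was 0.17, with 5 higher and 2 lower under the block. The kinases and serum response factors upstream gave 1 rise among 32 in WT cells, MAP2K3 (0.80 ± 0.16, adjusted p = 0.0046), 0 in W329G cells, and medians of -0.06 and -0.07. With the block 4 of these rose and 3 fell in WT cells, and 2 rose and 1 fell in W329G cells. EGR1 partners and targets gave 0 of 12 in both genotypes, with medians of 0.36 and 0.17. For this list 5 rose and 0 fell with the block in WT cells, and 2 rose in W329G cells. Beside these counts, 3.57% of all genes rose in WT cells and 0.195% in W329G cells, or 11.6% and 5.14% with the block.

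The other basic leucine zipper genes, partners or relatives of AP-1, went both ways in WT cells, where 3.57% of all genes rose and 5.22% fell. MAFF (0.98 ± 0.23, adjusted p = 0.0144), MAF (0.63 ± 0.14, adjusted p = 0.0117) and CREB3 (0.31 ± 0.09, adjusted p = 0.0375) rose, and ATF4 (-0.83 ± 0.12, adjusted p = 3.5e-04) and CEBPG (-0.67 ± 0.16, adjusted p = 0.0155) fell, 5 of 26 with a median of -0.08. ATF4 is the main factor of the integrated stress response, which is known to switch on ATF3, and it also fell in W329G cells (-0.57 ± 0.12, adjusted p = 0.038). On the list of 12 stress response genes, the ATF4 target PCK2 fell in both genotypes (-1.17 ± 0.24 and -1.29 ± 0.24), and SESN2, a target of ATF4 and of p53, rose in WT cells (1.65 ± 0.34, adjusted p = 0.00652). The medians of this list were -0.29 in WT and -0.55 in W329G cells, with 5 and 4 of 12 genes at positive values. Whether ATF4 takes part in the rise of ATF3 was not tested.

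**Figure D5:**
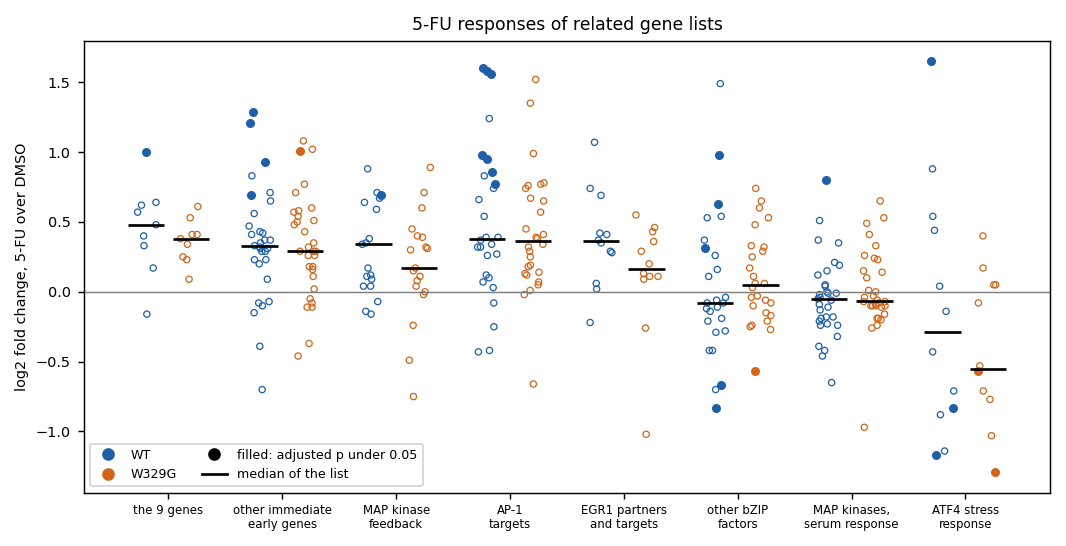
Log2 fold change of 5-FU over DMSO for the genes of each list in WT and W329G cells, filled where the adjusted p was under 0.05, with a bar at the list's median. The 9 genes, the other immediate early genes and the AP-1 target genes have medians between 0.29 and 0.48 in both genotypes, and the ATF4 list lies below 0.

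Between genotypes with 5-FU, the share of each list that was called is read against the 14.4% called among all genes, and 0 of 9 members is not set apart from the lists by a test. Among immediate early genes 7 of 31 were lower in W329G cells and 1 higher: CCN2 (-1.20 ± 0.15, adjusted p = 0.0019), BHLHE40 (-0.87 ± 0.11, adjusted p = 0.002), NFKBIZ (-0.89 ± 0.18, adjusted p = 0.0117) and SGK1 (-0.73 ± 0.16, adjusted p = 0.0187) lower, and KLF2 (1.81 ± 0.20, adjusted p = 0.00122) higher. Of the feedback genes 6 of 19 were lower, among them PHLDA1 (-1.89 ± 0.30, adjusted p = 0.00451), DUSP5 (-0.87 ± 0.16, adjusted p = 0.00927) and SPRY2 (-0.83 ± 0.16, adjusted p = 0.0117), and DUSP16 was higher. AP-1 target genes gave 6 lower, among them MMP9 (-2.24 ± 0.27, adjusted p = 0.0014) and ITGA2 (-1.29 ± 0.22, adjusted p = 0.00647), and 2 higher, SPP1 and PLAUR. FN1 and F3 were lower on the EGR1 list, 2 of 12. On the leucine zipper list 5 of 26 were higher, among them CEBPG (0.81 ± 0.16) and ATF4 (0.55 ± 0.12), and 2 lower, MAF and BATF2, and on the list of kinases and serum response factors MAP3K5 (1.21 ± 0.18) was higher and ELK3 (-0.74 ± 0.12) lower. On the stress list CHAC1 (2.00 ± 0.32) and ATF4 were higher and SESN2 lower, 3 of 12.

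These genotype calls depended on the line numbers. With the numbers exchanged in experiment 2, 222 genes were called in place of 2514, and of the 8 calls among immediate early genes 2 were kept, CCN2 and KLF2. None of the 7 feedback, 8 AP-1 target, 7 leucine zipper, 3 stress 2 kinase or 2 EGR1 list calls was kept. With single libraries in place of sums, 5, 6, 3, 5, 2, 2 and 1 of the calls were kept for the early, feedback, AP-1 target, leucine zipper, stress, kinase and EGR1 lists. Under DMSO the calls on the lists included MMP9 (-1.89 ± 0.26) lower and SPP1 (1.07 ± 0.16) and PLAU (0.63 ± 0.12) higher among AP-1 targets, and DUSP7 lower among feedback genes (-0.88 ± 0.12). Of these, 0 were kept with exchanged numbers and 1, DUSP7, with single libraries. Epithelial KRT8 (-1.08 ± 0.28) and osteoblast ALPL (-1.73 ± 0.37) were also lower in W329G cells with 5-FU and neural SNAP25 (0.78 ± 0.22) higher. These are single genes of lists that split, with 3 of 6 epithelial, 3 of 6 neural and 1 of 7 osteosarcoma markers tested at positive values and medians of -0.16, 0.00 and -0.40. None of the 3 calls was kept with exchanged line numbers, that of KRT8 was also lost with single libraries, and their part in these results was not tested.

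ATF3, the called member, was compared with 11340 genes over the 16 libraries after each experiment's mean was removed. The genes most like it were PRKAB2, a subunit of AMP-activated kinase (r = 0.95), the zinc finger gene ZSCAN30 (0.93) and PLCXD2 (0.91). All 3 rose in WT cells, with log2 fold changes of 0.80, 0.63 and 1.85. They were chosen for likeness to ATF3 over these same libraries, so their rise follows largely from the choice and is no separate result. ATF3 also ran with CDKN1A (r = 0.86) and MDM2 (0.87), and within the 8 WT libraries with r of 0.96 and 0.95. FOSB (0.78 and 0.74), FOSL1 (0.76 and 0.73), EGR1 (0.71 and 0.60) and FOS (0.68 and 0.49) ran with CDKN1A and MDM2 as well, and JUNB did so more within the WT libraries (0.84 and 0.77) than over all 16 (0.51 and 0.19). JUND ran against them (-0.31 and -0.41 over 16 libraries), and FOSL2 (0.39 and 0.31) and JUN (0.35 and 0.18) were loosely related to them. These are descriptions over libraries that share treatments, lines and experiments.

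Among themselves the members ran from positive to negative correlations. The closest pairs were FOSL1 with EGR1 (r = 0.77), ATF3 with FOSL1 (0.71) and FOS with JUNB (0.70), and the most opposed were JUND with FOSL2 (-0.57) and with ATF3 (-0.47). In experiment 1 the share of FOSL1 in the FOS family per kb was 20.4% in WT cells with DMSO and 31.3% with 5-FU, while FOSL2 went from 68.0% to 56.0%. In W329G cells FOSL1 went from 24.5% to 29.1% and FOSL2 from 63.0% to 58.3%. The FOSL1 ranges of the WT groups, 19.8% to 21.0% and 27.0% to 35.6%, did not overlap, with 2 libraries each and no test. Experiment 2 did not show this shift in WT cells: FOSL1 had a log2 fold change of 0.22 there and FOSL2 of 0.47, against 1.07 and 0.20 in experiment 1.

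Some counts share sequence with neighbours, and no source used here states whether counting used strand. JUNB shares 259 exon bases with HOOK2 on the opposite strand, which had 383 to 602 counts in experiment 1 against 1146 to 1999 for JUNB. FOSB lies inside ERCC1 on the opposite strand with 0 shared exon bases, at 171 to 328 counts against 2106 to 3638 for ERCC1. FOSL2 overlaps FOSL2-AS1, which had 7 to 25 counts. In bulk RNA, a larger share of cells with a transcript and more transcript per cell cannot be told apart. The single time of 24 h lies well after the minutes in which immediate early genes are first transcribed. That time course does not describe FOSL1, a delayed gene, or JUND, a steady one.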

How the data were processed

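Libraries were TruSeq from poly-A RNA, as the labels' protocols state. The authors deposited raw counts per gene for each of 16 libraries. Per the file headers, experiment 1 lists Ensembl genes with exon coordinates and lengths, and experiment 2 lists symbols. The aligner and counter were not given in the sources used here. Although hg19 appears in the submitters' processing notes, 96.3% of 56898 genes have the start and end of GENCODE release 29 (GRCh38), as do all 9 members, and coordinates are those of the files. In experiment 2 all 26 of the counts with 7 or more digits end in 0 and appear rounded. Tables were joined by symbol (28443 genes directly and 247 through an older symbol, with 14 ambiguous symbols left out), which kept 97.91% to 98.9% of counts.

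Counts were tested with edgeR 4.0.16 in R 4.3.3 (quasi-likelihood F test, TMM, filterByExpr by group, Benjamini-Hochberg over all tested genes, threshold 0.05), where "called" means an adjusted p under 0.05. Responses and their difference were fitted on 16 libraries with a term for experiment (16433 genes), genotype comparisons on counts summed per line (17481 genes). All 9 members passed the filter. Each standard error is the size of the log2 fold change over the root of F. Log2 CPM used a prior count of 2. Correlations used genes of at least 5 CPM. Pairing rests on the labels, where a number names a line of 1 genotype. Within an experiment the difference between lines correlated between treatments across genes (r = 0.488, 0.596, 0.709 and 0.632). Members and lists were chosen with earlier results of these data known. From each list the called genes were named, up to the 4 with the smallest p per direction and comparison, and for ATF3 the 3 genes most correlated with it. Tests were checked on simulated counts without experiment, line or pair effects, where the WT response recovered 96.5% of genes with a log2 change of 1 and 7.5% with 0.5. Alternatives were DESeq2 1.42.0, its size factors in edgeR, no count filter, the replicate block, a fold minimum, each experiment alone, no experiment term, no mitochondrial genes, single libraries, exchanged line numbers and leaving out replicates or lines, and, chosen after seeing the data, a term for each group and experiment. Values of some marker and list genes are not reported here.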

Additional observations from a re-analysis of the deposited data

Results flagged for a closer look

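Among the 9 members, the reference genes MDM2 and CDKN1A and the list genes named in the text, the 5-FU response differed between the genotypes by the interaction test for 3. On the reference list of p53 targets, which holds MDM2 and CDKN1A, 7 of 8 genes passed it, all lower in W329G cells. The response of CDKN1A was lower by -1.73 on the log2 scale in W329G cells (adjusted p = 0.00174) and that of MDM2 by -1.85 (adjusted p = 0.00218). KLF2 went the other way, with a difference of 1.70 (adjusted p = 0.0121). It measured 2.19, 1.75, 3.01 and 3.95 CPM in WT cells with DMSO and 1.11, 1.29, 1.94 and 2.46 CPM with 5-FU, and all 4 pairs were lower. In W329G cells it measured 2.17, 2.71, 3.43 and 3.38 CPM with DMSO and 3.25, 4.71, 9.72 and 7.17 CPM with 5-FU, and all 4 pairs were higher. Levels and 5-FU differences of the 9 members were also searched for a library or pair far from the others of its group, in 54 sets of 4, and 0 were found. Each set holds 2 libraries or pairs of each experiment, so where the experiments differ strongly, as in the levels of FOS, FOSB and JUNB, a gap of that kind is not searchable and a count of 0 says nothing of those levels.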

How the results depend on the processing

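Over 648 values of the members under alternatives, 616 kept their side of the threshold and their direction where called, 27 gained a call, 5 lost one and 0 reversed among calls, and 37 uncalled values changed sign. The 5 losses were ATF3 in WT cells: in experiment 1 alone (adjusted p = 0.059, where FOSL1 was called in its place), experiment 2 alone (0.299), without an experiment term (0.113), without replicate 2 (0.0512), and under the block with a fold minimum (log2 size 1), which its unrounded estimate missed. Members called in WT cells numbered 1 in the reported fit, 6 with the replicate block, 0 with block and fold minimum, 5 with DESeq2, 2 with DESeq2 size factors, without a count filter, without mitochondrial genes or with a term for each group and experiment, 0 in experiment 2 alone or without an experiment term, and 0 to 4 when a replicate was left out. In W329G cells they numbered 0, but 2 with the replicate block and 1 with DESeq2. For W329G against WT with 5-FU they numbered 0, but 1 with DESeq2, without a filter, with line numbers as a block or with single libraries, and 0 to 3 when a line was left out. The difference of responses and the DMSO comparison gave 0 throughout. The cause of these moves was not tested. Over all genes the WT response gave 1444 calls, 4068 with the block, 718 with block and fold minimum, 205 and 0 in the experiments alone, 401 without an experiment term and 661 to 1178 without a replicate. The W329G response gave 129, 1797 with the block, 202 with block and fold minimum, 572 with DESeq2, 0 in either experiment, 7 without an experiment term, 40 with a term for each group and experiment and 11 to 22 without a replicate. Their difference gave 198, 1010 with the block, 343 with block and fold minimum, 468 with DESeq2, 0 in either experiment, 21 without an experiment term and 87 to 205 without a replicate. The DMSO comparison gave 249, 1269 with DESeq2, 923 without a filter, 589 with the block, 0 and 4 in the experiments alone, 153 with single libraries, 2 with exchanged lines and 1 to 2309 without a line. The 5-FU comparison gave 2514, 420 and 30 in the experiments alone, 222 with exchanged lines and 180 to 2971 without a line. Low counts limit FOSB in experiment 2, with 17 to 74 per library.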
